A study of Canis lupus familiaris with 12 samples.

Results

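The oligoadenylate synthetase family was followed across MDCK cells, an established line of dog kidney epithelial cells, with and without Yoda1, a small molecule agonist of the mechanosensitive ion channel Piezo1. The members were all gene IDs of the deposited tables whose symbol is OAS1, OAS2, OAS3 or OASL. They were 5 of 31121 gene IDs, because 2 IDs carry the symbol OASL (ENSCAFG00845030170 and ENSCAFG00845030186), and these were kept apart. The 12 libraries form 4 groups of 3. C1 and C2 are controls at 12 h and 24 h by the deposited sample sheet, T1 received 25 µM Yoda1 for 12 h and T2 received 25 µM Yoda1 for 24 h. What the control cells received in place of Yoda1 was not stated in the labels used. No label ties the replicates of a group to separate cultures, and the p-values therefore reflect library-to-library spread that could be purely technical.

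The oligoadenylate synthetases sense double-stranded RNA, usually of viral origin. Once bound to it, OAS1, OAS2 and OAS3 join ATP into short chains linked from the 2′ to the 5′ position, called 2-5A, a second messenger of antiviral defence in the cell. Their genes are classic targets of interferon, and their transcripts are often found at a basal level without infection. OAS1, OAS2 and OAS3 differ in how many copies of the synthetase unit they carry, while OASL proteins carry ubiquitin-like domains, and in humans OASL makes no 2-5A and acts in RNA sensing.

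The libraries held 20709218 to 38889592 expected counts, and 14169 genes passed the filter on low counts, all 5 OAS IDs among them. Of 10 kidney epithelial markers listed, 5 are named in the tables, and their summed level was 2127 to 2420 TPM (transcript abundance scaled to the library and corrected for length) in C1 and 2290 to 2386 in C2. The sum was lower with Yoda1, at 1675 to 1866 TPM in T1 and 1430 to 1565 in T2, but its 5 genes did not all go the same way. The keratin KRT18, which makes up most of it, had mean levels of 1436, 1103, 1434 and 904 TPM in C1, T1, C2 and T2, and the junction genes CDH1 and CLDN1 were also lower in T1 and T2 than in their controls. The mean of PAX8, a kidney transcription factor, was 101 TPM in C1 and 116 in T1, and 117 in C2 and 111 in T2. That of OCLN, a tight junction gene, was 33.1 TPM in C1 and 37.3 in T1, and 43.2 in C2 and 36.0 in T2. The part of these markers in the OAS results was not tested. The fibroblast, endothelial and leukocyte marker lists stayed at or below 1.75, 6.06 and 2.07 TPM summed per library. DCN and LUM, fibroblast matrix genes, had no count in any library, below 0.145 CPM (counts scaled to library size) by a floor of 3 counts in the shallowest library, and the leukocyte gene PTPRC had at most 3 counts.

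OAS1, OAS2 and OAS3 were abundant in untreated cells and the OASL IDs were not. In C1 the mean TPM was 138 ± 23.3 for OAS1, 147 ± 11.4 for OAS2, 43.2 ± 7.76 for OAS3, 10.6 ± 1.18 for OASL ENSCAFG00845030186 and 1.14 ± 0.261 for OASL ENSCAFG00845030170 (SD, n = 3). By the mean over all 12 libraries, OAS1 and OAS2 stood at percentiles 90.3 and 90.6 of the tested genes, OAS3 at 71.2, and the OASL IDs at 42.6 and 14.3. OAS1 and OAS2 therefore lay side by side, with ranges in C1 of 123 to 164 and 138 to 160 TPM that overlap. OAS3 gathered about as many counts as OAS1, but its counts per TPM, which follow the effective transcript length, were 3.23 times those of OAS1, and those of OAS2 were 1.72 times as high. All 60 expected counts of the 5 IDs were exactly whole numbers, as were 91.1% of the count values over all gene IDs. No fractional split of reads between similar family members is visible in those 60.

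In the RefSeq gene table for the assembly UU_Cfam_GSD_1.0, OAS1, OAS3 and OAS2 follow each other with no other protein-coding gene between them. OASL stands there beside a gene listed as LOC477518 with the synonym OASL2. None of the file IDs could be matched to that table by ID, so which of the 2 OASL IDs corresponds to which of these genes was not determined.

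After 24 h with Yoda1, transcripts of OAS1, OAS2 and OAS3 fell, by 2.58-fold, 1.74-fold and 2.38-fold against the 24 h controls. After 12 h none of the 5 IDs passed the test against its controls. OASL ENSCAFG00845030186 stayed between 12.4 and 18.7 CPM in all 12 libraries, and the low OASL ENSCAFG00845030170 did not pass the test at either time.

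**Figure D1:**
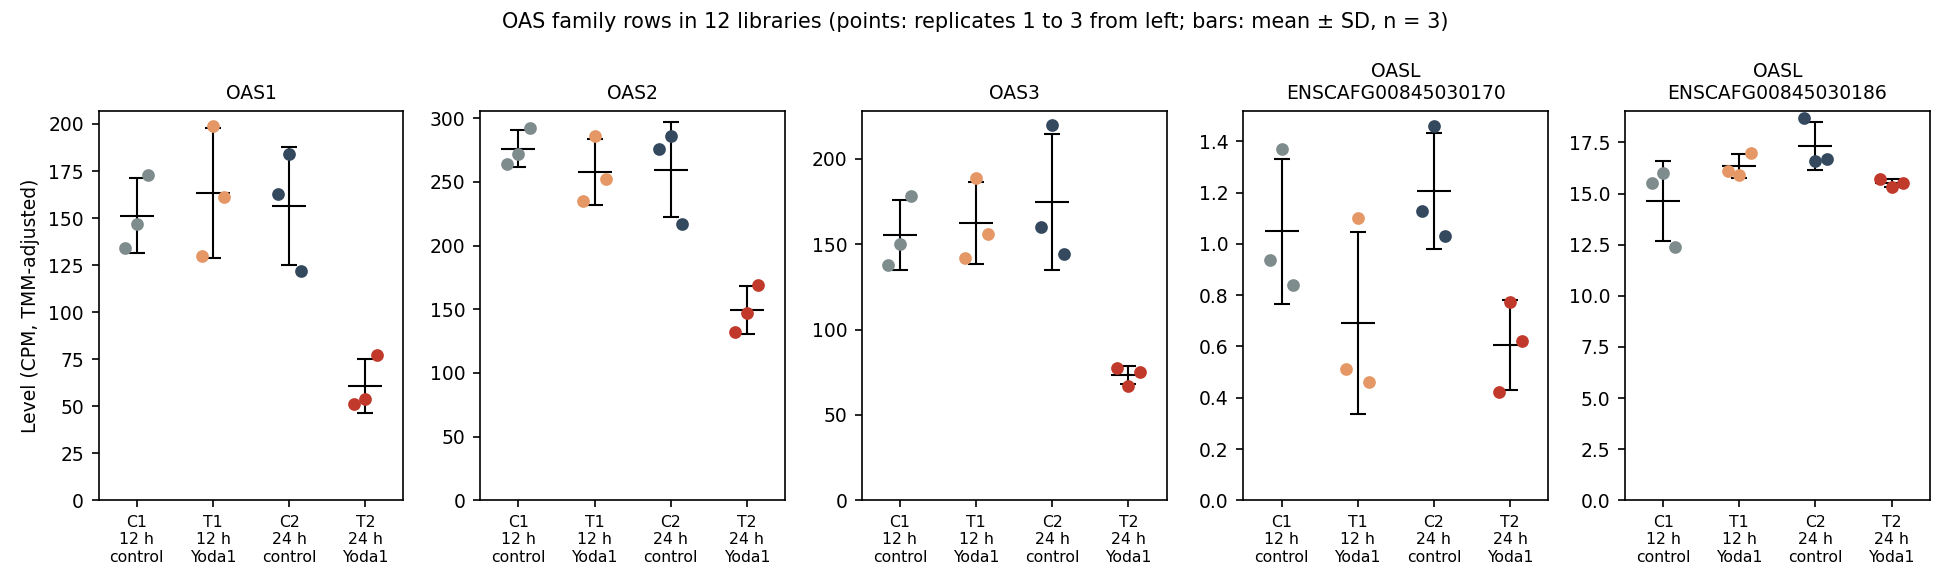
Levels of the 5 OAS IDs in CPM (linear axes from 0, a separate scale per gene) in the 12 libraries by group, with points for libraries and bars for mean ± SD (n = 3). For OAS1, OAS2 and OAS3 the T2 libraries lie below all 9 other libraries, with OAS1 at most 77.1 CPM in T2 and at least 122 elsewhere.

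OAS1, the smallest of the synthetases, was at 134, 147 and 173 CPM in C1 replicates 1, 2 and 3, and at 130, 199 and 161 CPM in T1. It was at 163, 184 and 122 CPM in C2 and at 51.1, 53.9 and 77.1 CPM in T2. C1, T1 and C2 overlapped, and every T2 library lay below every library of the other groups. The fitted log2 fold change was 0.11 ± 0.20 (SE) at 12 h (edgeR adjusted p = 0.79), with a 95% interval of -0.33 to 0.55. At 24 h it was -1.37 ± 0.21 (edgeR adjusted p = 0.0016), and between -1.58 and -1.23 when single libraries were left out.

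OAS2 was the most counted of the family. Its level was 264, 272 and 292 CPM in C1, 235, 286 and 252 CPM in T1, 276, 286 and 217 CPM in C2, and 132, 147 and 169 CPM in T2. The highest T2 library, at 169 CPM, was below the lowest of the other 9, at 217 CPM. The log2 fold change was -0.10 ± 0.12 at 12 h (edgeR adjusted p = 0.66, interval -0.35 to 0.15) and -0.80 ± 0.12 at 24 h (edgeR adjusted p = 0.00099, interval -1.05 to -0.55).

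OAS3, the largest synthetase, known for its high affinity for long double-stranded RNA, was at 138, 150 and 178 CPM in C1 and 142, 189 and 156 CPM in T1. In C2 it was at 160, 220 and 144 CPM, and in T2 at 77.4, 67.2 and 75.2 CPM. The T2 libraries were close together (73.3 ± 5.37 CPM), whereas C2 spread most (175 ± 40 CPM), mainly through replicate 2. The log2 fold change was 0.07 ± 0.15 at 12 h (edgeR adjusted p = 0.84, interval -0.27 to 0.40) and -1.25 ± 0.16 at 24 h (edgeR adjusted p = 0.00053). Without C2 replicate 2 the fall at 24 h was -1.06 (edgeR adjusted p = 0.00024).

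OASL ENSCAFG00845030186 was at 15.5, 16 and 12.4 CPM in C1, 16.1, 15.9 and 17.0 CPM in T1, 18.7, 16.6 and 16.7 CPM in C2, and 15.7, 15.3 and 15.5 CPM in T2. From lowest to highest mean the groups ran C1, T2, T1 and C2. C1 overlapped T2, and T1 overlapped C2. T2 lay just below T1, as in 11.5% of tested genes, without passing the test. T2 lay below C2 in all libraries, as in 16.2% of tested genes. Its log2 fold change at 24 h was -0.16 ± 0.10 (edgeR adjusted p = 0.31), and the interval of -0.39 to 0.07 does not reach the size of the falls of OAS1, OAS2 or OAS3. At 12 h it was 0.15 ± 0.11 (edgeR adjusted p = 0.43).

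OASL ENSCAFG00845030170 had only 12 to 50 counts per library. It was at 0.936, 1.37 and 0.841 CPM in C1, 0.512, 1.10 and 0.460 CPM in T1, 1.13, 1.46 and 1.03 CPM in C2, and 0.423, 0.775 and 0.621 CPM in T2. T2 again lay below C2, while T1 and C1 overlapped. At 12 h the log2 fold change was -0.61 ± 0.37 (edgeR adjusted p = 0.35), with a wide interval of -1.41 to 0.19. The log2 fold change of -0.99 ± 0.37 at 24 h did not pass the threshold (edgeR adjusted p = 0.076), and its interval of -1.78 to -0.20 holds both a small and a large decrease. It passed without T1 replicate 2 (edgeR adjusted p = 0.044). The depth at this ID allows no finer statement.

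**Figure D2:**
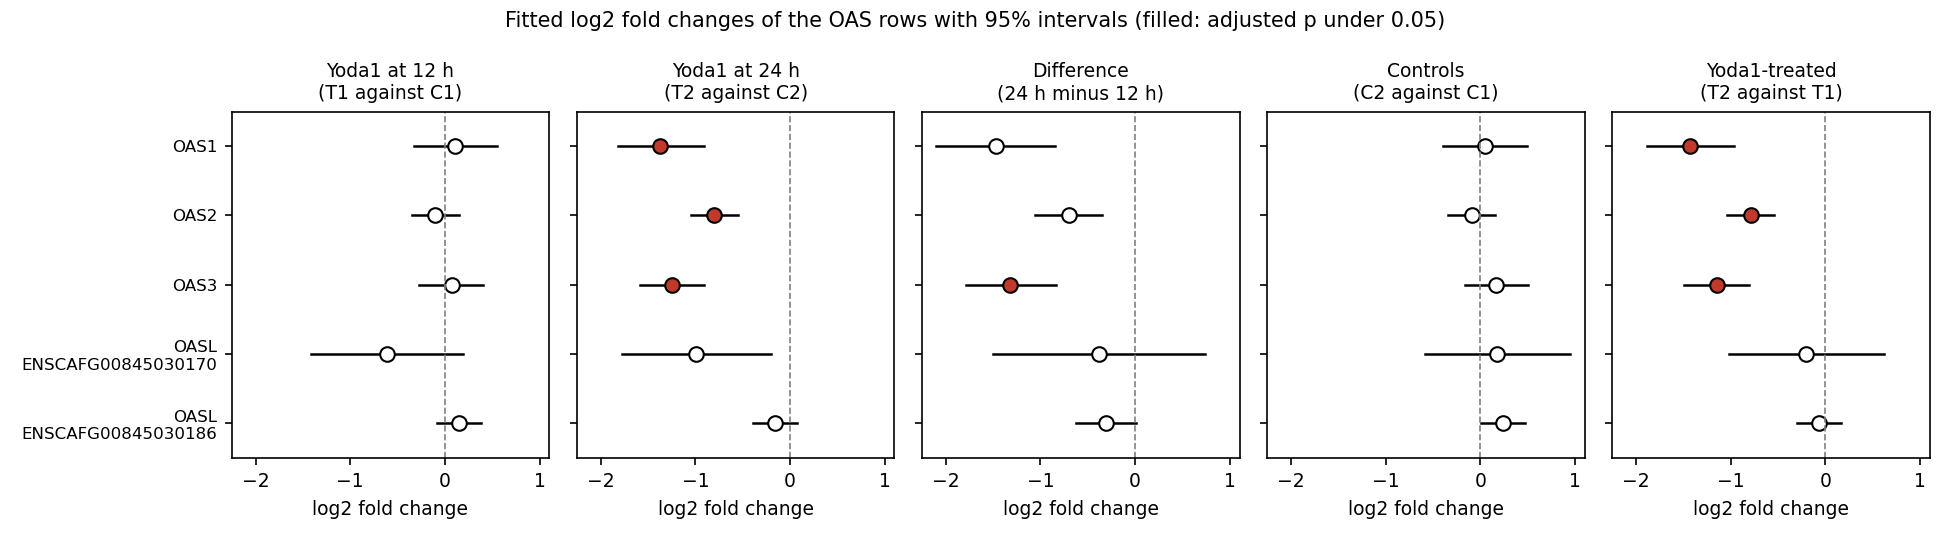
Fitted log2 fold changes of the 5 OAS IDs in 5 comparisons, with lines for 95% intervals and filled points for an adjusted p under 0.05. Filled points are those of OAS1, OAS2 and OAS3 at 24 h and between T2 and T1, and that of OAS3 for the difference between times.

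Counted over the family, edgeR's quasi-likelihood test with Benjamini-Hochberg adjustment over all tested genes called 3 of 5 IDs at 24 h, all lower, where it called 18.6% of all tested genes and 9.61% as lower. DESeq2 and limma voom called the same number. All 5 had T2 libraries below every C2 library, as did 16.2% of tested genes. At 12 h it called 0 of 5, against 6.99% of tested genes in either direction. None of the 5 had an unadjusted p under 0.05 there, and DESeq2 and limma voom called 0 as well. No member passed between the controls either: for C2 against C1 edgeR, DESeq2 and limma voom each called 0 of 5 (0.162% of tested genes by edgeR, 0.0353% as higher), with 1 at an unadjusted p under 0.05. That was OASL ENSCAFG00845030186 (log2 fold change 0.24 ± 0.11), whose C2 libraries all lay above C1, as in 7.42% of tested genes (6.85% lay below).

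Within the treated cells, T2 was compared with T1, a comparison that shares its T2 libraries with that at 24 h. OAS1 was lower in T2, with a log2 fold change of -1.43 ± 0.21 (edgeR adjusted p = 0.024). OAS3 followed with -1.15 ± 0.16 (edgeR adjusted p = 0.015) and OAS2 with -0.79 ± 0.12 (edgeR adjusted p = 0.019). The test called only 12 genes lower in this comparison, 0.0847% of those tested, and these 3 were among them. None of the 3 was called without T1 replicate 2, T1 replicate 3, T2 replicate 1 or T2 replicate 2, where their adjusted p reached up to 0.17, while the log2 fold changes stayed between -1.64 and -1.26, -1.24 and -1.03, and -0.89 and -0.71 for OAS1, OAS3 and OAS2. OAS1 was also not called without C1 replicate 2, nor OAS3 without T2 replicate 3.

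Whether the response at 24 h differed from that at 12 h was tested directly, as the log2 fold change of T2 against C2 minus that of T1 against C1. The difference was -1.32 ± 0.22 for OAS3 (edgeR adjusted p = 0.042), which was 1 of 13 genes called in that direction (0.0917% of those tested). For OAS1 it was -1.47 ± 0.29 (edgeR adjusted p = 0.070, interval -2.10 to -0.85) and for OAS2 -0.70 ± 0.16 (edgeR adjusted p = 0.12, interval -1.06 to -0.35). The OASL IDs gave -0.31 ± 0.15 for ENSCAFG00845030186 and -0.38 ± 0.52 for ENSCAFG00845030170, with intervals that include 0. The call of OAS3 was lost in 9 of 12 fits that left out a library, namely each C1, each T1 and each T2 library (edgeR adjusted p up to 0.16, log2 difference -1.44 to -1.12). Without C2 replicate 1 OAS1 was called beside OAS3 (edgeR adjusted p = 0.048), and DESeq2 called OAS1, OAS2 and OAS3 where limma voom called 1 ID.

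The mix of synthetase transcripts was described by ratios within a library. OAS1 and OAS2 were near parity in C1, T1 and C2: the TPM of OAS1 over that of OAS2 was 0.861, 0.912 and 1.03 in C1, 0.995, 1.15 and 1.12 in T1, and 1.07, 1.08 and 0.959 in C2. In T2 the ratio was 0.674, 0.602 and 0.820, below every other library. An exact two-sided permutation test of the log2 ratio between T2 and C2 gave p = 0.10, the smallest p that 3 libraries against 3 allow, so the design cannot pass the threshold here. OAS2 over OASL ENSCAFG00845030186 was likewise separate, at 6.16, 7.06 and 8.01 in T2 against 10.9, 12.7 and 9.54 in C2 (exact permutation p = 0.10). OAS1 over OAS3, at 2.08, 2.47 and 3.21 in T2, overlapped C2 at 3.49, 2.52 and 2.7 (exact permutation p = 0.40). OAS3 over OAS2 was 0.325, 0.244 and 0.256 in T2 against 0.306, 0.426 and 0.356 in C2, and overlapped too (exact permutation p = 0.20). The 8 such tests, of 4 ratios at 2 times, were not adjusted because none could pass the threshold. Summed over the 5 IDs, the family had 356 ± 70.7 TPM in C2 and 178 ± 25.4 TPM in T2, and 339 ± 40.9 TPM in C1 and 362 ± 36.7 TPM in T1.

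**Figure D3:**
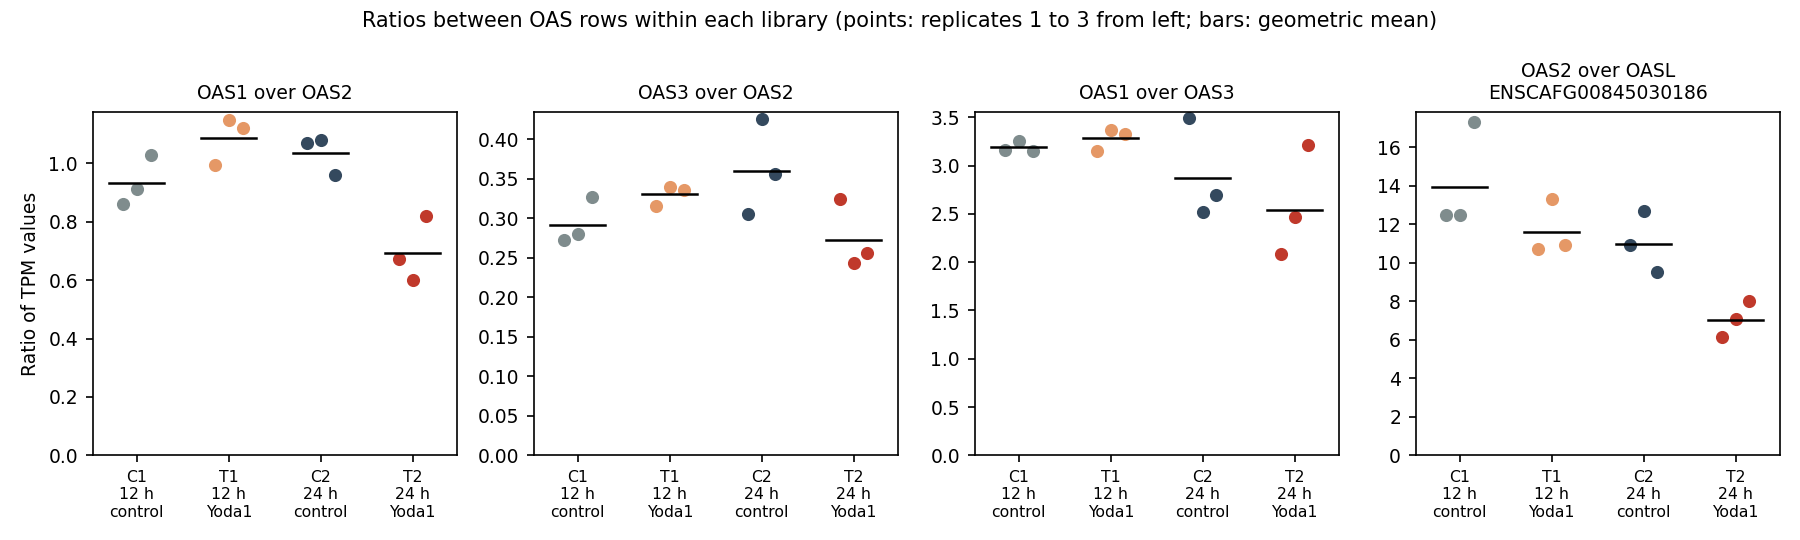
Ratios of TPM between OAS IDs in each library by group (linear axes from 0), with bars for the geometric mean of 3 libraries. OAS1 over OAS2 lies between 0.602 and 0.820 in T2 and at or above 0.861 elsewhere, while OAS1 over OAS3 overlaps between C2 and T2.

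Of the listed genes that act around 2-5A, ABCE1, a ribosome recycling protein, rose at 24 h (0.34 ± 0.08, edgeR adjusted p = 0.010). ENPP1, a phosphodiesterase able to cleave 2-5A, stood at -0.37 ± 0.20 (edgeR adjusted p = 0.23). PDE12 and AKAP7 were not analysed here.

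Many of the listed genes upstream of the synthetases could not be tested, and most of the tested ones did not pass. Of 14 interferon ligands listed, 4 are named in the tables and 1 was tested. IFNA7 and IFNG had no count in any library, below the same floor of 0.145 CPM, and IFNB1 had 4 counts in all 12 libraries together. IFNK, an interferon of epithelial cells, was at 0.409 ± 0.0998 CPM in C1, 0.884 ± 0.202 in T1, 0.694 ± 0.321 in C2 and 0.400 ± 0.0739 in T2, and was called at neither time (edgeR adjusted p = 0.097 and 0.17). Of 12 receptor and JAK-STAT genes listed, 9 were tested. Among these 9, 1 fell at 24 h, which is near the 9.61% of all tested genes called lower. It was JAK1, a kinase of the interferon receptors (-0.37 ± 0.09, edgeR adjusted p = 0.011), a call lost without T2 replicate 2 or T2 replicate 3. IRF9, a subunit of the factor that binds interferon-stimulated promoters, was at -0.12 ± 0.08 at 24 h (edgeR adjusted p = 0.32).

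Among 8 nucleic acid sensors and adaptors, 2 fell and 1 rose at 24 h, where 9.61% of all tested genes fell and 8.96% rose. DHX58, the RIG-I-like receptor LGP2, fell from 55.9, 35.0 and 29.8 CPM in C2 to 11.9, 11.7 and 13.9 CPM in T2 (-1.68 ± 0.20, edgeR adjusted p = 0.00048). C1 and T1 overlapped, at 26.9 ± 2.68 and 31.7 ± 4.55 CPM. TRIM25, a ubiquitin ligase that acts on RIG-I, fell (-0.39 ± 0.10, edgeR adjusted p = 0.015), but not by the test without T2 replicate 2 or T2 replicate 3. TBK1, the kinase downstream of these sensors, rose by 0.33 ± 0.08 (edgeR adjusted p = 0.015), and by 0.38 ± 0.08 at 12 h (edgeR adjusted p = 0.017). Its call was lost at 24 h without C2 replicate 3 or T2 replicate 3, and at 12 h without C1 replicate 2, C1 replicate 3, T1 replicate 1 or T1 replicate 3.

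Of 6 negative regulators, 1 rose and 1 fell at each time. Over all tested genes, 8.96% rose and 9.61% fell at 24 h, and 3.01% rose and 3.97% fell at 12 h. USP18, which removes the modifier ISG15 and damps the interferon receptor, was at 42.1, 50.4 and 37.9 CPM in C2 and 19.0, 22.8 and 27.0 CPM in T2 (-0.92 ± 0.15, edgeR adjusted p = 0.0016). At 12 h its T1 libraries, at 39.6, 52.8 and 46.3 CPM, lay above C1, at 29.7, 32.9 and 36.4 CPM, as in 16.4% of tested genes. USP18 did not pass the test there (edgeR adjusted p = 0.064). The riser at 24 h was the phosphatase PTPN2 (0.23 ± 0.07, edgeR adjusted p = 0.040), whose call was lost in 8 of 12 fits without 1 library, that is without C1 replicate 1 or 3, C2 replicate 1, T1 replicate 1 or 3, or any T2 library. At 12 h PIAS1 rose (0.48 ± 0.12, edgeR adjusted p = 0.030) and SOCS3, a feedback inhibitor of JAK kinases, fell (-0.51 ± 0.13, edgeR adjusted p = 0.036). PIAS1 lost its call in 5 and SOCS3 in 7 of the 12 fits, both of them without C1 replicate 1, C1 replicate 2, T1 replicate 1 or T1 replicate 3. PIAS1 lost it also without C1 replicate 3, and SOCS3 also without T1 replicate 2, T2 replicate 2 or T2 replicate 3.

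Of the effectors induced by interferon, 8 of 16 fell at 24 h and 0 rose by edgeR, against 9.61% and 8.96% of all tested genes. An unadjusted p under 0.05 was reached by 11, and the median log2 fold change was -1.069 against -0.015 over all tested genes. TNFSF10, the death ligand TRAIL (-1.73 ± 0.22), RTP4, a receptor transporter (-1.68 ± 0.22), and IFI35 (-1.56 ± 0.26) had the largest called changes of the list. MX1, an antiviral GTPase, was at 104, 111 and 54.1 CPM in C2 and 26.1, 28 and 42.4 CPM in T2 (-1.47 ± 0.32, edgeR adjusted p = 0.012), and was not called without T2 replicate 2. At 12 h 1 of the 16 fell, against 3.97% of all tested genes. It was the guanylate-binding GTPase GBP1 (-2.32 ± 0.56, edgeR adjusted p = 0.029), at only 3.34 ± 1.72 CPM in C1. Its call was lost without C1 replicate 2 or 3 or any 1 T1 library. In the antigen presentation list 3 of 6 fell at 24 h and 0 rose, against the same 9.61% and 8.96% of all tested genes. The 3 were the immunoproteasome subunit PSMB8 (-0.48 ± 0.08), the peptide transporter TAP2 (-0.47 ± 0.08) and B2M, the light chain of MHC class I (-0.45 ± 0.09).

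**Figure D4:**
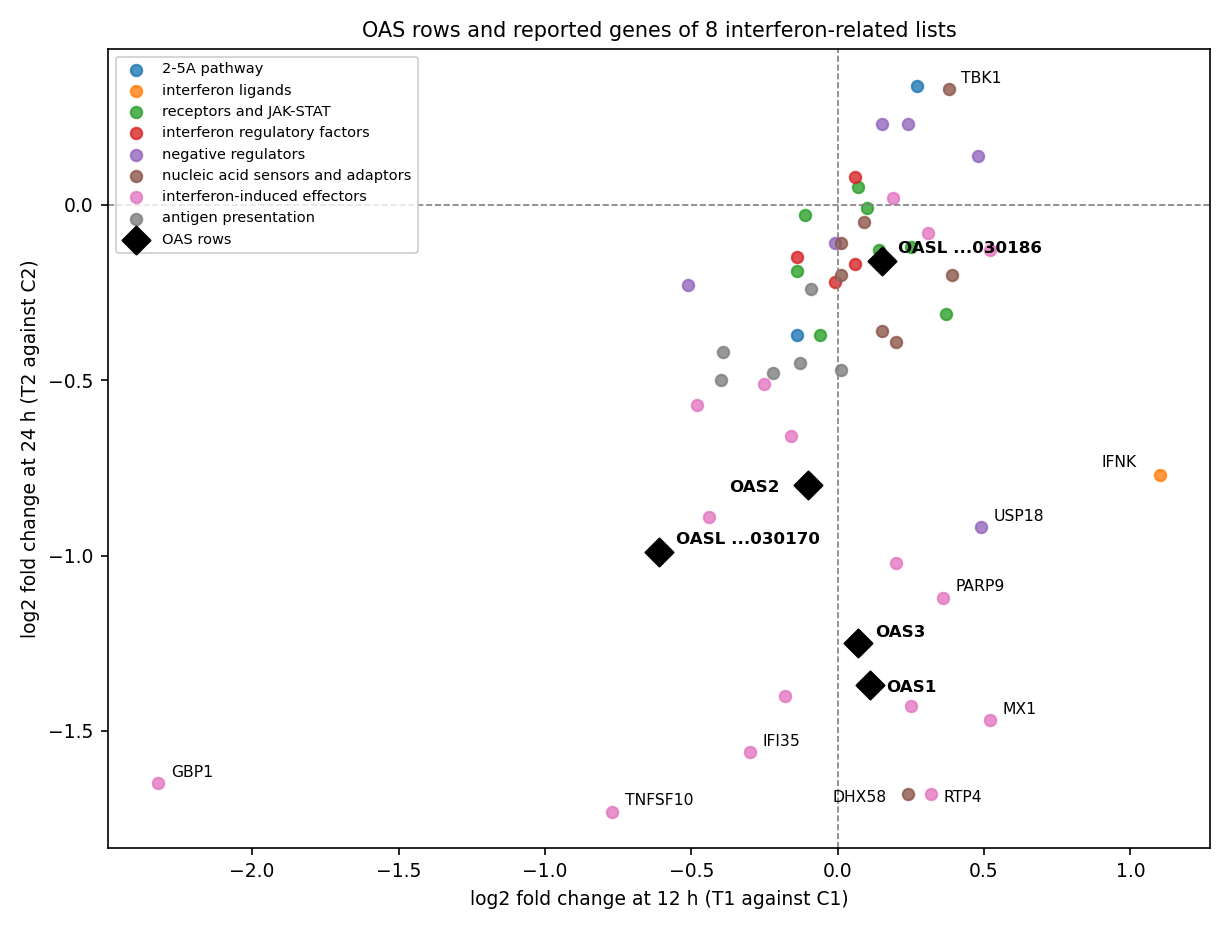
Fitted log2 fold changes at 12 h (horizontal) and 24 h (vertical) of the 5 OAS IDs (black diamonds) and of the genes of 8 lists reported here (coloured points). OAS1, OAS2 and OAS3 lie near 0 at 12 h (0.11, -0.10 and 0.07) and between -1.37 and -0.80 at 24 h.

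The 8 lists hold 124 symbols and no OAS gene, and 54 of their genes were tested. Of these, 4 rose and 16 fell at 24 h, against 8.96% and 9.61% of all tested genes, with a median log2 fold change of -0.274. At 12 h 2 rose and 3 fell, against 3.01% and 3.97% of all tested genes, with a median of 0.069 against 0.006 over all. The 5 calls at 12 h became 2, 0 and 1 without C1 replicates 1, 2 and 3, and 0, 3 and 0 without T1 replicates 1, 2 and 3. They became 11 and 14 without C2 replicates 1 and 2, and 3 without T2 replicate 2 or T2 replicate 3. With C1 and T1 libraries paired by replicate number as a block, 27 of the 54 were called and still none of the OAS IDs.

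The genes whose levels ran most like the family's were sought among 6418 genes with a symbol and a mean of at least 5 CPM. Likeness was Pearson's r of log2 CPM over the 12 libraries with the mean standardised profile of the 5 OAS IDs, given as a description, since the low T2 libraries set most of it. OAS1, OAS2 and OAS3 themselves had r of 0.929, 0.922 and 0.923, OASL ENSCAFG00845030170 had 0.731 and OASL ENSCAFG00845030186 had 0.354. Each OAS ID is part of the profile, which raises its own r, so these values are not comparable with those of other genes. The 10 closest were DHX58 (0.929), MX1 (0.923), TBL1X (0.919), UBE2L6 (0.915), RTP4 (0.903), TAP2 (0.900), DTX3L (0.898), IFI35 (0.893), B2M (0.885) and TMEM97 (0.882). Of these, 7 are in the interferon-related lists, which hold 0.732% of the candidates. The lists were chosen with earlier results of these data known, so the 7 are given as a description and not as a test. UBE2L6, the enzyme that passes ISG15 to its targets, fell from 49.8 to 32.8 CPM between C2 and T2 (log2 fold change -0.60, edgeR adjusted p = 0.0038), and TBL1X, a corepressor subunit, from 141 to 105 CPM (-0.43, edgeR adjusted p = 0.0011).

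**Figure D5:**
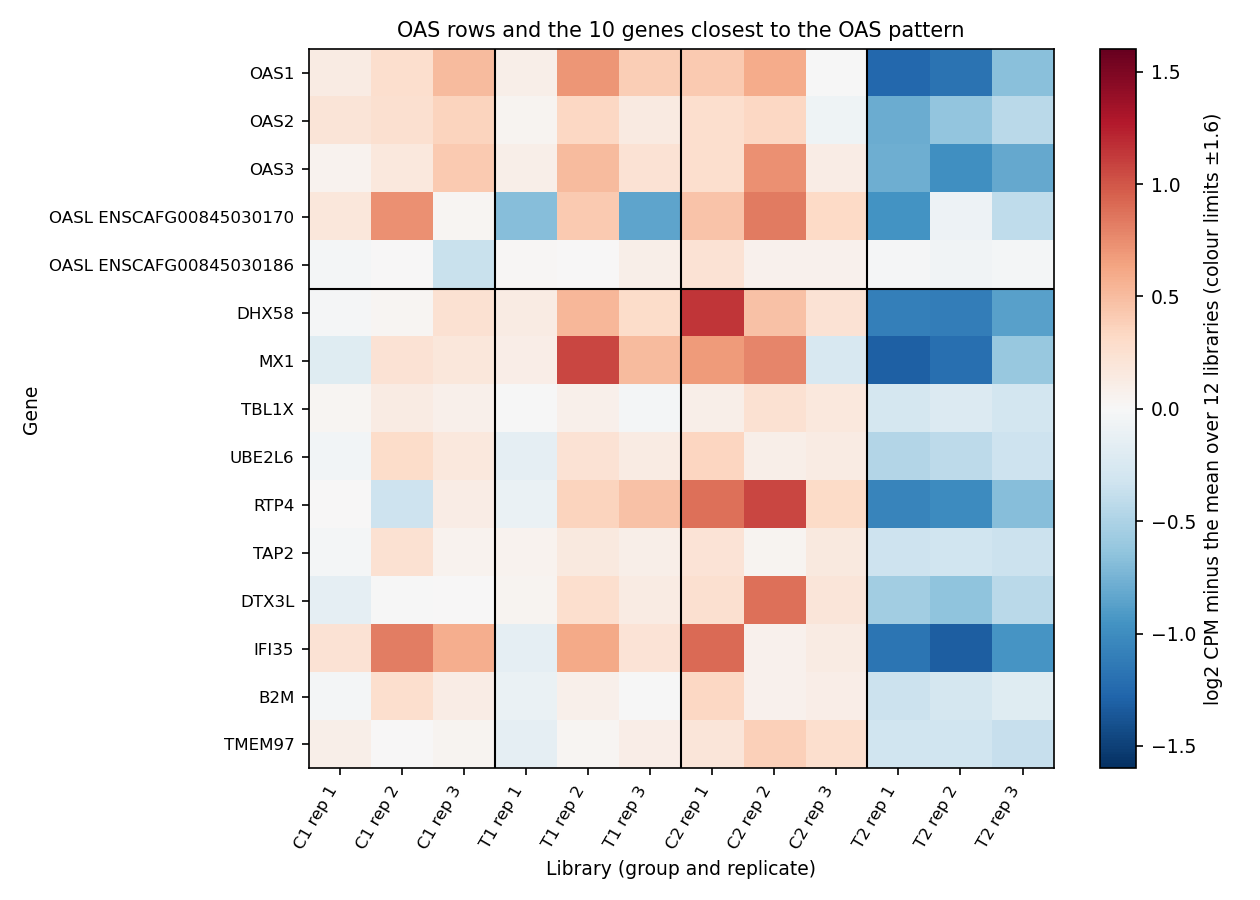
Log2 CPM of each gene minus its mean over the 12 libraries, as colour from blue (lower) to red (higher), for the OAS IDs and the 10 genes with the highest r. The 3 T2 columns are blue for OAS1, OAS2, OAS3 and the 10 genes, and near white for OASL ENSCAFG00845030186, whose r was 0.354.

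The libraries of a group also differed together. In C2, replicate 3 was the lowest library for OAS1, OAS2 and OAS3 and replicate 2 the highest, and in T1 replicate 2 was the highest for all 3. When group means were subtracted, the gene closest to the family's remaining deviations was MX1 (r = 0.969 over 12 libraries), which followed the same order in C2 and in T1. The next were SLC38A10 (0.964), ARPC5L (0.942), ARID3A (0.932) and ECM1 (0.916), and 1 of the 10 closest is in the lists. OAS1, OAS2 and OAS3 had r of 0.889, 0.912 and 0.703 by this measure, and OASL ENSCAFG00845030186 had 0.0597. Here too each OAS ID is part of the profile it was set against. The falls of the synthetases at 24 h were larger without C2 replicate 3, with log2 fold changes of -1.52, -0.91 and -1.37 for OAS1, OAS2 and OAS3 (edgeR adjusted p = 0.0020, 0.00081 and 0.00061). In bulk RNA, fewer cells with a transcript and less of it per cell cannot be told apart.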

How the data were processed

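Polyadenylated RNA was sequenced from 12 MDCK libraries as 101 bp pairs with a stranded kit, per the labels' protocols. The authors deposited expected counts per gene, not normalized, and TPM. The submitters' processing notes name fastp 0.23.4, STAR 2.7.10b and RSEM 1.3.3. Neither genome build nor annotation is named there or in the labels, and no coordinates are printed. Columns were matched to samples by title and groups were taken from the titles.

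Expected counts were rounded. Genes were kept by filterByExpr of edgeR 4.0.16 (R 4.3.3), which left 14169, and scaled by TMM. A robust quasi-likelihood model took all 12 libraries, with a mean for each group, and p-values were adjusted by Benjamini-Hochberg over all genes kept. A gene was called, and is said to have risen or fallen, at an adjusted p under 0.05. SE is the absolute log2 fold change over the root of F. CPM uses TMM-adjusted library sizes. The common biological coefficient of variation was 13.3%. Floors and counts cover counting error only. The fitting code was tested on simulated data.

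Named genes are the 5 OAS IDs, up to 4 called genes per list with the largest change, and the 10 closest by each measure of likeness. IRF9, ENPP1, IFNK and PARP9 were named after their values were seen. Some genes of the lists enter the counts over all lists but are not reported here by name. The members and lists were chosen with earlier results of these data known. Alternatives were DESeq2 1.42.0, limma 3.58.1 (voom, and log2(TPM + 1) or log2(TPM + 0.1)), RLE factors, library size only, no filter, 6 libraries only, summed OASL IDs, each library left out, and the replicate number as a block. The main fit used no pairs at either time, and the replicate number entered only as a block in alternative fits. Deviations from group means of same-numbered C1 and T1 libraries correlated at 0.153, 0.283 and 0.115. Each T1 library correlated best with the C1 library of its own number, and pairs of unlike number lay between -0.206 and 0.0798. At 24 h the correlations of same-numbered C2 and T2 libraries were 0.0631, -0.0767 and -0.0841, and pairs of unlike number lay between -0.0924 and 0.164. No label says whether the numbers pair the libraries.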

Additional observations from a re-analysis of the deposited data

Results flagged for a closer look

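Among the OAS IDs and the genes of the lists, the response to Yoda1 differed between 24 h and 12 h for 5 genes by the test of the difference itself. Over all tested genes that test called 22 (0.155%), with 13 (0.0917%) in the same direction as these 5. OAS3 differed by -1.32 on the log2 scale (edgeR adjusted p = 0.042), with the 3 T2 libraries below the 3 C2 libraries, while T1 and C1 overlapped. DHX58 differed by -1.92, RTP4 by -2.0, PARP9 by -1.48 and USP18 by -1.41 (edgeR adjusted p = 0.028 for each). Each of these calls was lost in some of the 12 fits that left out a library: 9 for OAS3, 8 for DHX58, 7 for RTP4, and 6 each for PARP9 and USP18. All 5 were lost without C1 replicate 1, C1 replicate 2, T1 replicate 2, T1 replicate 3 or T2 replicate 2. The differences kept their sign in all 12 fits, within -1.44 to -1.12 for OAS3, -2.10 to -1.61 for DHX58, -2.20 to -1.84 for RTP4, -1.62 to -1.36 for PARP9 and -1.54 to -1.29 for USP18. The differences also take in the change between the controls. For C2 against C1 the log2 fold change was 0.85 for RTP4, 0.58 for DHX58, 0.40 for USP18 and 0.17 for OAS3, none of them called. RTP4 had mean levels of 6.89, 8.57, 12.3 and 3.82 CPM in C1, T1, C2 and T2, and PARP9 had 20.0 CPM in C1 and 25.3 in C2. Groups of 3 libraries are too small for a check of single outlying libraries.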

How the results depend on the processing

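The falls of OAS1, OAS2 and OAS3 at 24 h were called under every alternative run except the replicate block in the 6 libraries of that comparison, where OAS3 alone was called, so the count of OAS IDs was 1 against 3. There 7 of 54 pathway genes against 20 and 306 of all genes against 2630 were called. In that fit the edgeR adjusted p was 0.058 for OAS1 and 0.051 for OAS2. The fit has few residual degrees of freedom. Not every T2 library correlated best with its own number, but no label says whether the numbers pair the samples at 24 h, and the correlations cannot settle it. With only those 6 libraries and no block, 1080 genes were called. For T2 against T1 the block in 12 or in 6 libraries lost the call of OAS1. The block in 12 libraries added a call of OASL ENSCAFG00845030170 at 24 h (edgeR adjusted p = 0.03), as did log2(TPM + 1). It also lost the difference of OAS3 between times. Beyond these calls of OAS1, OASL ENSCAFG00845030170 and OAS3, the block in 12 libraries changed no OAS call. At 12 h no alternative called an OAS ID. For the difference between times, 1 OAS ID was called in the main analysis, 3 by DESeq2 and 0 with log2(TPM + 1), log2(TPM + 0.1) or the replicate block in 12 libraries. Of the pathway genes at 12 h, 5 in the main analysis, 11 were called by library size only, 12 by DESeq2, 8 with log2(TPM + 1) or log2(TPM + 0.1), 10 in 6 libraries and 27 with the replicate block in 6 libraries. All genes called at 12 h numbered 990, but 1649 by DESeq2, 1673 in 6 libraries and 4339 with the replicate block there. The causes were not tested.

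Leaving out single libraries gave 3 to 4 OAS IDs at 24 h, 0 to 2 for the difference, 0 to 3 for T2 against T1, 0 to 14 pathway genes at 12 h and 14 to 23 at 24 h. All genes called ranged from 185 (without T1 replicate 3) to 1695 (without C2 replicate 2) at 12 h, outside 1.5 times the main count also without each C1 library, C2 replicate 1 or T1 replicate 1. At 24 h they ranged from 1138 (without T2 replicate 3) to 3332, and fell that far also without C2 replicate 3 or T2 replicate 2. Directions turned only for differences that were not called: OAS1 at 12 h (-0.06 to 0.25) and for C2 against C1 (-0.08 to 0.20), OAS2 for C2 against C1 (-0.16 to 0.03), OAS3 at 12 h (-0.06 to 0.17) and for C2 against C1 (-0.03 to 0.29), and OASL ENSCAFG00845030170 for the difference between times (-0.63 to 0.13) and T2 against T1 (-0.41 to 0.31). Depth limits that ID most, with 12 to 50 counts per library.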

Other observations

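Besides OAS1, OAS2 and OAS3, the 12 genes lower in T2 than in T1 held 6 more with a symbol, named after their values were seen. They were DHX58 (log2 fold change -1.34), LGALS9, which encodes galectin-9 (-1.27), and PARP9, a partner of DTX3L (-1.15). The others were USP18 (-1.01), PAQR8 (-0.72) and an ID labelled Metazoa_SRP (-9.79). The 5 with a symbol that were higher in T2 included ERRFI1, a feedback inhibitor of the EGF receptor (0.63), and the peptide hormone gene ADM (0.69). The others were MALL (0.69), FAM3D (1.68) and STMN3 (7.02). The extreme values are those of Metazoa_SRP and STMN3 (edgeR adjusted p = 0.00027 and 0.015). Whether they rest on few counts or on a single library was not tested.

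Few of the named neighbours of the OAS genes in the RefSeq table are paired with a symbol in the files. RPL6, near OAS1, stood at 0.03 ± 0.10 on the log2 scale at 24 h (edgeR adjusted p = 0.86). SPPL3, a protease gene near OASL, fell by 0.31 on the log2 scale (SE 0.09, edgeR adjusted p = 0.038), and GIT2, also near OASL, stood at 0.16 ± 0.09 (edgeR adjusted p = 0.25).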
